A study of Mus musculus with 16 samples.

Results

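The 12 libraries of 3 knockdown (KD) lines of RAW264.7 cells, 4 libraries each, were set against the 4 libraries of the parental line, out of 16 libraries in all. RAW264.7 (TIB-71) is a mouse macrophage-like line from a leukaemia virus-induced tumour. The labels of the KD lines are ORP5/8 KD, CDC50A KD and ATP11A/C KD, and that of the control is Parental. They were chosen by genotype label alone, and each KD line was given equal weight. The quantity of interest was what the 3 lines had in common, that is, genes that moved the same way and by a like amount in each of them. All groups share the cell line, the plating, the harvest on the following day and the library kit. Names of the KD libraries start with "sh", a prefix the labels leave unexplained, and the construct, its selection and whether a line is 1 clone are not given in the sources used here. A non-targeting construct was not part of the comparison, so a change common to the 3 lines cannot be told apart from one that goes with making any such line.

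Phosphatidylserine is an acidic phospholipid made in the endoplasmic reticulum and kept on the inner leaflet of the plasma membrane. ORP5 and ORP8 (genes Osbpl5 and Osbpl8) exchange it for phosphatidylinositol 4-phosphate where both membranes meet. ATP11A is a P4-ATPase, a flippase that pumps the lipid back inward, and CDC50A (gene Tmem30a) is the partner subunit that most such pumps need. By their labels, the lines are aimed at different steps in the placing of 1 lipid. In macrophages, phosphatidylserine matters for engulfment, and in LC3-associated phagocytosis the autophagy protein LC3 is coupled to single-membrane phagosomes. Macrophages also keep a low basal type I interferon signal, which acts through factors such as Stat2 and Irf9 and sets the resting level of antiviral genes.

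Total counts ran from 24020891 to 41543050 per library, and 13107 of 55573 genes passed the low-count filter. Levels are counts-per-million (CPM) after TMM scaling, and log2 fold changes are KD over Parental as estimate ± standard error. A gene was called at a Benjamini-Hochberg adjusted p under 0.05 in edgeR's quasi-likelihood test. The labels do not say that the 4 libraries of a line came from separate cultures, and the p-values therefore rest on a spread that may be technical. All 10 macrophage markers checked were present in every library, at 65.6 CPM or more. By group mean, Cd68, Lyz2, Itgam, Ptprc, Mpeg1 and Fcgr1 lay below Parental in each KD line, Adgre1 lay above it in each, and Csf1r, Spi1 and Tyrobp lay on both sides. Lyz2, a lysozyme, had means of 4170, 2580 and 2860 CPM in the ORP5/8, ATP11A/C and CDC50A lines and 7210 CPM in Parental. Markers of other cells were mostly at or near 0: 7 of 10 fibroblast, 9 of 12 neutrophil and mast cell and 7 of 8 epithelial genes had no count anywhere. Of 10 dendritic cell genes only 3 had none, and their summed level was 2.12 to 4.09 CPM in KD libraries and 1.95 to 2.95 in Parental. The summed level of the B and T cell list ran from 133 to 212 CPM in KD libraries and from 101 to 109 in Parental. Nearly all of it was Ighm, and without that gene the sums were 2.08 to 3.61 CPM in KD libraries and 4.19 to 4.73 in Parental. Mitochondrial genes took 1.62% of counts on average over the KD lines (1.36% to 1.78% by library) and 1.19% in Parental (1.08% to 1.26%). The ranges did not overlap (exact permutation test over libraries, 2-sided p = 0.0286 for each line against Parental, the smallest that 4 libraries against 4 allow). The KD side holds 3 lines and the other side 1, and the part of this difference in the results below was not tested.

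Among the genes the lines are named for, Osbpl8 was lower by more than 2-fold in all 3 lines, whichever gene the label names. Osbpl8 (gene ENSMUSG00000020189.14; mm10 chromosome 10, 111164752 to 111297249, plus strand), encoding ORP8, stood at 109, 98, 89.4 and 99.8 CPM in the ORP5/8 line, 116, 124, 133 and 136 in the ATP11A/C line, 120, 118, 117 and 110 in the CDC50A line, and 333, 335, 346 and 335 CPM in Parental. Every KD library was at or below 136 CPM and every Parental library at or above 333 CPM. The equal-weight log2 fold change was -1.57 ± 0.0416, adjusted p = 9.28e-18, from -1.77, -1.41 and -1.54 in the ORP5/8, ATP11A/C and CDC50A lines. Atp11a (ENSMUSG00000031441.15; mm10 chromosome 8, 12757014 to 12868728, plus strand) fell less evenly (-0.21, -1.52 and -0.51 in the same order). Tmem30a (ENSMUSG00000032328.12; mm10 chromosome 9, 79768943 to 79793507, minus strand) was lower in each, with -0.31, -0.19 and -0.35, and was not called different among the lines (adjusted p = 0.0626). Osbpl5 had 2 to 13 counts in every library, below the filter, and an exact permutation test of its log2(CPM + 0.1) level gave 2-sided p-values of 0.743, 0.571 and 0.971 for the ORP5/8, ATP11A/C and CDC50A lines against Parental. A partial loss would not be detectable at such counts. Tmem30a did not set the line labelled CDC50A KD (120 to 134 CPM) apart from that labelled ORP5/8 KD (118 to 143 CPM), both with 155 to 165 CPM in Parental as their control. Tmem30a RNA was below Parental in the CDC50A line but does not single that line out, and a loss of Osbpl5 was not seen. Atp11a fell most in the ATP11A/C line and Osbpl8 most in the ORP5/8 line, though both had negative changes in every line. The KD names below are used as labels only.

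Across all genes, the equal-weight comparison called 2864 of 13107 higher (21.9%) and 3135 lower (23.9%). Fewer genes were called in each line separately in 1 direction, with 845 higher (6.45%) and 1434 lower (10.9%). In 647 genes (4.94%) all 12 KD libraries lay above all 4 Parental libraries, and in 1378 (10.5%) all lay below. With a change of at least 2-fold in each line, 77 genes were higher (0.587%) and 212 lower (1.62%). These 289 are called shared genes here. A further limit, that the largest of the 3 fold changes be at most 1.5 times the smallest, left 30 higher (0.229%) and 72 lower genes (0.549%), called similar genes. All 3 comparisons use the same Parental libraries, so their agreement in direction is not independent evidence, and an odd value in Parental would appear in each. When a gene needed 1 CPM in at least 4 libraries, both directions had fewer genes. There were 48 shared and 18 similar higher genes, and 164 shared and 62 similar lower ones. In bulk RNA, fewer cells of a type and less RNA per cell cannot be told apart.

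The lines differed widely from each other as well. The test of a difference among the 3 KD lines called 7885 genes (60.2%). Among shared genes 177 of 289 (61.2%) were so called, a share close to that background, and among similar genes 27 of 102 (26.5%), a share that the 1.5-fold limit itself pulls down. On the higher side, 91 of 289 shared and 32 of 102 similar genes reached 10 CPM, against 9010 of 13107 genes tested. Median standard errors were 0.166 and 0.132 against 0.0578, so these shares are not like for like. Another 306 genes were called in all 3 lines but not in 1 direction, and 6 of these changed at least 2-fold in each. In all 6 (Smo, Nid2, Cd28, Galnt3, Dmwd and Lrfn1, listed after their values were seen) the ORP5/8 line went against the other lines. Cd28, the T cell costimulatory receptor, had log2 fold changes of 1.18, -1.48 and -1.46. When each line entered as 1 mean value, 3 against 1, limma called 1 gene higher and 0 lower (295 higher and 760 lower at an unadjusted p under 0.05). The gene was Ranbp3l (3.66, adjusted p = 0.0346). With the 12 KD libraries as 1 group, edgeR called 1528 genes higher and 1872 lower. The counts of the equal-weight fit rest on the spread between libraries of a line, and 3 values against 1 leave 2 residual degrees of freedom.

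The similar genes that rose were few and mostly of low level. Of the 30, 14 stayed under 1 CPM and 3 reached 10 CPM on the higher side. In 26 all KD libraries lay above Parental (4.94% of all genes), which the 2-fold limit in each line favours. Ranbp3l (ENSMUSG00000048424.17; mm10 chromosome 15, 8967949 to 9067335, plus strand), which binds Ran and carries BMP-activated Smad proteins out of the nucleus, led them. It stood at 101, 90.0, 85 and 97.1 CPM in the ORP5/8 line, 69.9, 74.8, 81.9 and 82 in the ATP11A/C line, 86.9, 94.5, 86.1 and 102 in the CDC50A line, and 6.28, 6.51, 6.71 and 7.98 CPM in Parental. The lowest KD library was far above the highest Parental one, where the naming rule asked only for no overlap. The log2 fold change was 3.67 ± 0.079, adjusted p = 5.74e-19, with 3.76, 3.49 and 3.75 in the 3 lines. The other 2 above 10 CPM, named here because so few reached it, are the predicted genes Gm10825 (1.46; 51.0 CPM in KD, 18.4 in Parental) and Gm26581 (1.44; 32.0 in KD, 11.7 in Parental).

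Some of the lower-level similar genes, chosen after their values were seen, had levels as follows. Tert, the catalytic subunit of telomerase, stood at 2.76, 2.96, 3.02 and 3.22 CPM in the ORP5/8 line, 4.13, 2.91, 4.39 and 3.91 in the ATP11A/C line, 3.6, 3.72, 3.03 and 4.05 in the CDC50A line, and 1.35, 1.2, 1.44 and 1.14 CPM in Parental. Each KD library was at least at 2.76 CPM and no Parental library passed 1.44, and the log2 fold change was 1.43 ± 0.13, adjusted p = 8.76e-09. Cbfa2t3, a transcriptional corepressor of blood cells, stood at 4.55, 5.58, 5.63 and 6.28 CPM in the ORP5/8 line, 4.38, 4, 3.36 and 4.59 in the ATP11A/C line, 6.02, 4.64, 5.3 and 3.24 in the CDC50A line, and 0.8, 0.547, 0.721 and 1.14 CPM in Parental, again without overlap (2.56 ± 0.191, adjusted p = 3.69e-10). Nxf7, of the nuclear RNA export factor family, rose by 1.99 ± 0.126, and Gstp1, a glutathione transferase whose reads could be split with close paralogs, by 1.23 ± 0.107. Siglech, a receptor of plasmacytoid dendritic cells and 1 of 3 tested genes of the dendritic list, averaged 0.614 CPM in KD and 0.106 in Parental (2.46 ± 0.475), with 0.233 CPM in the lowest KD library against 0.246 in the highest Parental one. Vat1l had at most 0.0361 CPM in any Parental library, so its fitted change of 4.65 depends on the prior count and is no measure of size.

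The similar genes that fell were better expressed: 29 of 72 reached 10 CPM in Parental. In 71 all KD libraries lay below (10.5% of all genes), again favoured by the 2-fold limit. Layn (ENSMUSG00000060594.6; mm10 chromosome 9, 51054640 to 51077094, minus strand), the hyaluronan receptor layilin, stood at 1.66, 2.01, 1.67 and 2.09 CPM in the ORP5/8 line, 1.88, 0.931, 1.42 and 1.67 in the ATP11A/C line, 1.42, 1.36, 1.41 and 1.68 in the CDC50A line, and 11.1, 12, 11.5 and 11.7 CPM in Parental. Sptbn1 (ENSMUSG00000020315.18; mm10 chromosome 11, 30099395 to 30268175, minus strand), the beta-spectrin under the plasma membrane, stood at 7.91, 8.17, 7.62 and 7.46 CPM in the ORP5/8 line, 7.5, 4.78, 7.06 and 8.72 in the ATP11A/C line, 7.44, 5.56, 6.19 and 7.01 in the CDC50A line, and 38.4, 36.1, 35.7 and 37.3 CPM in Parental. Log2 fold changes were -2.86 ± 0.101, adjusted p = 1.25e-15 and -2.37 ± 0.0828, adjusted p = 9.63e-16. Neither gene was called different among the lines (adjusted p = 0.117 and 0.213). Genes named by rank had to show no overlap between KD and Parental libraries, so that separation is no separate result. Efr3b, which anchors the phosphatidylinositol 4-kinase complex at the plasma membrane, fell by 1.64 ± 0.0651 on the log2 scale. Lpp, a LIM protein of focal adhesions, fell by 1.54 ± 0.0773 and Tm4sf19, a tetraspan membrane protein, by 1.60 ± 0.0831. The membrane protein Ptchd1 fell by 1.44 ± 0.0796.

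Secreted factors were also among the named similar genes that fell, for which the naming rule required no overlap with Parental. Spp1 (ENSMUSG00000029304.14; mm10 chromosome 5, 104435118 to 104441050, plus strand), the matrix cytokine osteopontin, stood at 886, 834, 826 and 834 CPM in the ORP5/8 line, 496, 612, 596 and 591 in the ATP11A/C line, 538, 587, 604 and 690 in the CDC50A line, and 2100, 2110, 2070 and 2250 CPM in Parental. It was the most abundant of the named similar genes, and its equal-weight change was -1.68 ± 0.0494, adjusted p = 4.93e-17. Its level in ORP5/8 KD was above that in the other lines (-1.34, -1.90 and -1.82; difference among lines, adjusted p = 4.12e-07). The predicted gene Gm42793 overlaps Spp1 on the same strand, and reads in the overlap could be split between them. Kitl, the ligand of the Kit receptor, stood at 9.73, 7.77, 8.04 and 9.85 CPM in the ORP5/8 line, 9.42, 11.7, 11.6 and 13.3 in the ATP11A/C line, 8.86, 10.8, 11.6 and 10.1 in the CDC50A line, and 41.4, 44.1, 41.6 and 39.4 CPM in Parental, a fall without overlap (-2.04 ± 0.0722, adjusted p = 1.25e-15). Il1rn, the interleukin-1 receptor antagonist, stood at 16.3, 16.8, 15.3 and 16.5 CPM in the ORP5/8 line, 12.4, 15.4, 12.4 and 15.4 in the ATP11A/C line, 18, 18.2, 18.4 and 14.8 in the CDC50A line, and 56, 55.1, 52.9 and 54.7 CPM in Parental, again without overlap (-1.80 ± 0.0573, adjusted p = 2.06e-16). Ecm1, an extracellular matrix protein, fell by 1.48 ± 0.0762 and Ass1, which makes argininosuccinate in the arginine cycle, by 1.42 ± 0.0780.

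**Figure D1:**
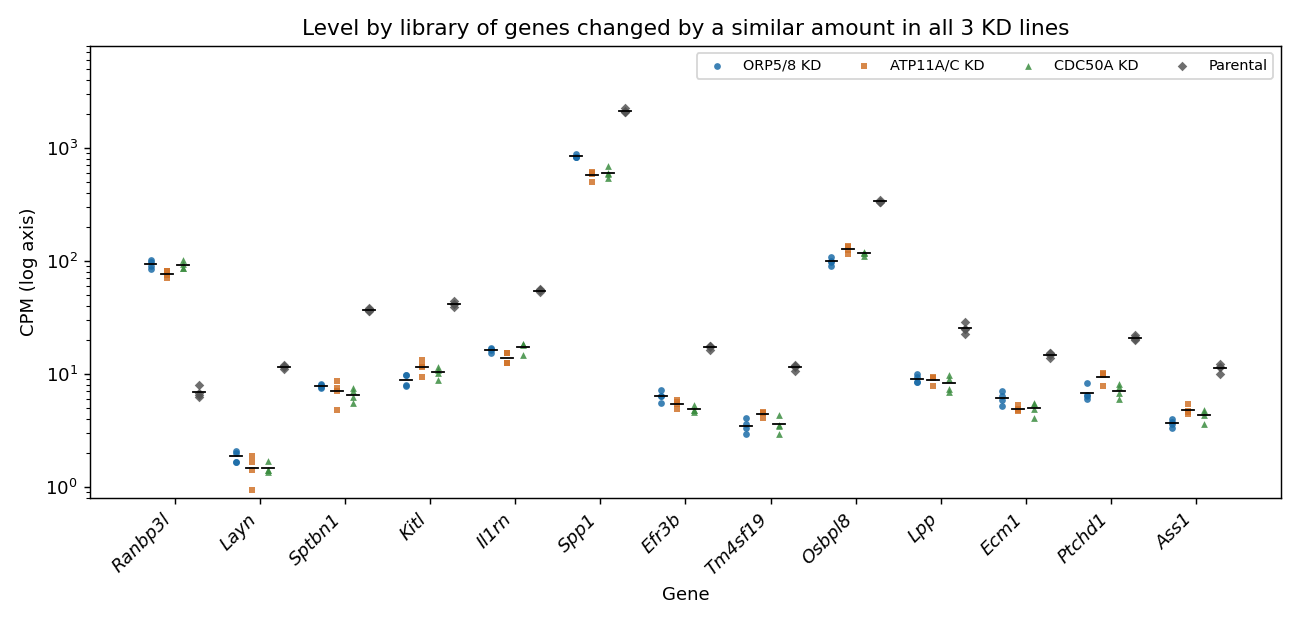
Level in CPM (log axis) of the 13 similar genes with at least 10 CPM that were taken by rank, in each of the 16 libraries; symbols are single libraries and short bars are means of 4. Ranbp3l lies at 69.9 to 102 CPM in the KD lines and 6.28 to 7.98 in Parental, and the other 12 genes lie below Parental in every KD library. The rule that took these genes required no overlap between KD and Parental libraries.

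Some genes near the 2-fold limit, named after their values were seen, had nearly the same change in each line. Hk3, the hexokinase of myeloid cells, stood at 46, 46.6, 53 and 48.4 CPM in the ORP5/8 line, 50.7, 45.7, 49.2 and 47.5 in the ATP11A/C line, 42.3, 44.1, 48.3 and 50.4 in the CDC50A line, and 96.8, 99.9, 92.1 and 102 CPM in Parental. Its log2 fold changes were -1.01, -1.02 and -1.08, and they were not called different (adjusted p = 0.525), which does not show that they are equal. Fam20c, a Golgi kinase of secreted proteins, had -1.09, -1.12 and -1.16, and the membrane protein gene Tmem106a -1.16, -1.06 and -1.13. Just inside the 1.5-fold limit were Epas1 and Vat1l, each with a ratio of 1.49, and just outside were Rhoc with 1.52 and Gm46223 with 1.53. Near the 2-fold limit, Oit3 and Serpinb1c had weakest log2 fold changes that just met it and Phyhd1 and Gm42793 ones that just missed it (all -1.0 when rounded).

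Without the limit on similarity, the 8 shared genes of at least 10 CPM taken in each direction by their weakest change included Chst1 and Hpgd, which rose by different amounts in the lines. Chst1 (ENSMUSG00000027221.5; mm10 chromosome 2, 92599707 to 92615250, plus strand), which adds sulfate to keratan sulfate, stood at 32, 35.3, 38.6 and 37.9 CPM in the ORP5/8 line, 60.3, 46.1, 48.2 and 50.4 in the ATP11A/C line, 82.8, 85.7, 86.1 and 104 in the CDC50A line, and 1.75, 1.72, 1.66 and 1.63 CPM in Parental. The 3 KD lines did not overlap each other, in the order ORP5/8, ATP11A/C, CDC50A from low to high, and the equal-weight change was 5.02 ± 0.11, adjusted p = 6.54e-19. Hpgd (ENSMUSG00000031613.9; mm10 chromosome 8, 56294585 to 56321043, plus strand), the dehydrogenase that inactivates prostaglandins, stood at 9.33, 8.73, 7.5 and 8.35 CPM in the ORP5/8 line, 28.2, 36.8, 32.1 and 35.4 in the ATP11A/C line, 55.6, 59.8, 52 and 58.4 in the CDC50A line, and 1.2, 0.903, 0.974 and 0.934 CPM in Parental. It had the same order of lines and an equal-weight change of 4.64 ± 0.11, adjusted p = 1.71e-18. Both differed among the lines (adjusted p = 4.06e-11 and 1.23e-15). Of the other genes taken by rank, Igf2bp3 (an mRNA-binding protein; 1.87, 2.83 and 3.0), Trp53i11 (1.61, 3.02 and 3.74) and the transcription factor Runx3 (1.01, 1.23 and 1.91) had their highest level in CDC50A KD. Scel, or sciellin (4.24, 2.73 and 3.01), and the sorting receptor Sort1 (1.74, 1.23 and 1.02) had theirs in ORP5/8 KD. Outside that ranking and chosen after its values were seen, Stc1, the hormone stanniocalcin-1, reached at most 1.96 CPM in any library. It had 281, 170 and 102 counts summed over the libraries of the 3 lines and 0 in Parental. That makes it at least 76.2-fold, 49.9-fold and 34.1-fold higher than a limit of 3 counts over the Parental group, which covers counting error only.

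Of the 212 shared genes that fell, 109 fell most in the ORP5/8 line, 29 in the ATP11A/C line and 74 in the CDC50A line. Lyz1 (ENSMUSG00000069515.6; mm10 chromosome 10, 117287797 to 117292868, minus strand), a lysozyme, stood at 25.8, 29.7, 28.7 and 27.6 CPM in the ORP5/8 line, 6.58, 6.76, 6.07 and 6.36 in the ATP11A/C line, 9.45, 10.6, 9.8 and 9.58 in the CDC50A line, and 158, 179, 179 and 173 CPM in Parental. It fell most in ATP11A/C KD (-2.62, -4.74 and -4.13; equal-weight -3.83 ± 0.0393, adjusted p = 1.1e-24). Its near-identical neighbour Lyz2 fell as well (-0.79, -1.48 and -1.33), and reads could be split between them. Acod1, the enzyme that makes itaconate, stood at 4.07, 3.2, 4.35 and 3.57 CPM in the ORP5/8 line, 7.03, 6.58, 6.87 and 6.23 in the ATP11A/C line, 7.85, 9.46, 7.5 and 10.6 in the CDC50A line, and 49, 46.8, 48.5 and 49 CPM in Parental. It was lowest in ORP5/8 KD (-3.67, -2.85 and -2.45). Slfn4, a myeloid Schlafen gene, fell by 3.40 ± 0.22 but was unsteady between libraries, from 12.9 to 85 CPM in KD and 176 to 410 in Parental. The other genes taken by rank were the chemokine Ccl5 (-4.21, -3.07 and -2.42), the p200 family member Ifi211 (-4.48, -2.66 and -2.17) and the antiviral GTPase Mx1 (-6.14, -2.65 and -2.07), each lowest in ORP5/8 KD.

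**Figure D2:**
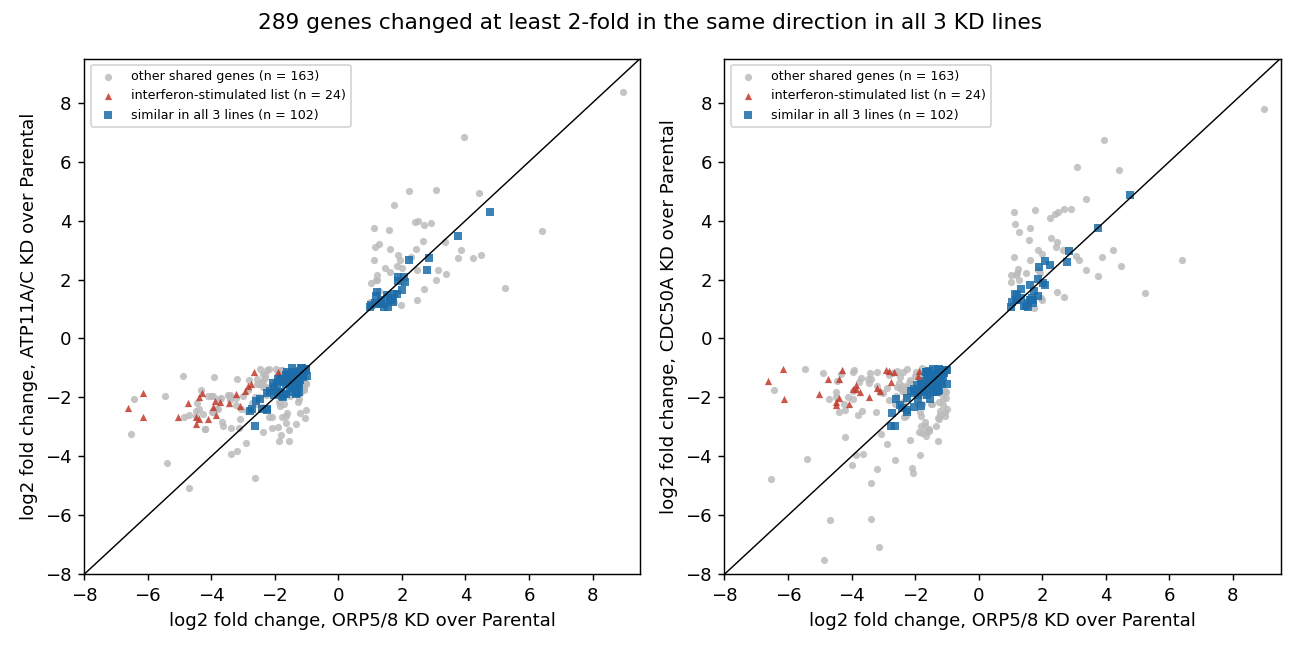
Log2 fold change over Parental of the 289 shared genes in ATP11A/C KD (left) or CDC50A KD (right) against that in ORP5/8 KD; each point is a gene, the line marks equal change, and both axes share the Parental libraries. The 24 members of the interferon-stimulated list lie above the line at the lower left. The 102 similar genes lie along it because of the limit that chose them.

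Interferon-stimulated genes were the list with the most members lower in all 3 lines, and none of its members met the limit for a similar amount. Stat2, placed in another list, met it. Of 68 members tested, 67 were lower and 1 higher (all genes: 23.9% lower, 21.9% higher). In each line by itself 65 were lower (10.9% of all genes). With the KD libraries as 1 group, 62 were lower and 1 higher. Like all gene lists here, this one was chosen with earlier results of these data known. Its shares beside those of all genes are therefore a description and no test. The median log2 fold change was -2.11 in the ORP5/8 line, -0.97 in the ATP11A/C line and -0.74 in the CDC50A line, against 0.02, 0.01 and -0.01 over all genes tested. Of the 66 called in each line, 58 had that order of size and 65 differed among the lines. Isg15, a ubiquitin-like modifier, stood at 5.34, 5.95, 7.74 and 4.83 CPM in the ORP5/8 line, 31.4, 34.9, 31.9 and 33.6 in the ATP11A/C line, 48.4, 57.7, 54.8 and 64.9 in the CDC50A line, and 111, 124, 118 and 119 CPM in Parental. No library of 1 group overlapped another group, and the levels went up from ORP5/8 KD through ATP11A/C and CDC50A KD to Parental. Ifit1, which binds foreign RNA, stood at 4.84, 4.18, 3.74 and 4.11 CPM in the ORP5/8 line, 12.3, 14.5, 13.6 and 11.3 in the ATP11A/C line, 17.6, 19.4, 20.1 and 22.8 in the CDC50A line, and 62.2, 67, 66.2 and 64.3 CPM in Parental. Rsad2 (viperin) stood at 6.65, 6.68, 6.98 and 7.2 CPM in the ORP5/8 line, 15.5, 16.4, 17.7 and 16.4 in the ATP11A/C line, 24.1, 34.1, 29.5 and 35.1 in the CDC50A line, and 104, 101, 98.4 and 96.5 CPM in Parental. Both kept the order seen for Isg15, with equal-weight changes of -2.66 ± 0.06, adjusted p = 8.91e-19 and -2.72 ± 0.0597, adjusted p = 6.54e-19. Oasl2, of the oligoadenylate synthetase family, and Cmpk2, a mitochondrial nucleotide kinase, had log2 fold changes of -4.74, -2.19 and -1.38 and -2.93, -1.77 and -1.08. Ifi27 was the exception and rose in each line (1.92, 0.85 and 0.80).

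Upstream of these genes, Stat2 was the 1 similar gene. In the list of 24 tested interferon ligands, receptors and transcription factors, 17 were lower and 4 higher (11 and 3 with the KD libraries as 1 group). Stat2, a subunit of the complex that type I interferon assembles, stood at 38.8, 39.2, 39.7 and 40.2 CPM in the ORP5/8 line, 52, 48.2, 50.7 and 48.9 in the ATP11A/C line, 49.1, 54.6, 53.7 and 62.4 in the CDC50A line, and 123, 119, 120 and 127 CPM in Parental. Its log2 fold changes were -1.63, -1.29 and -1.15 (-1.36 ± 0.0409, adjusted p = 7.34e-17 with equal weight). That is the order of lines seen for Isg15, and every ORP5/8 library lay below those of the other KD lines. Irf7, which amplifies type I interferon, had -3.85, -1.34 and -0.86. Among 23 tested cytosolic nucleic acid sensors, 14 were lower and 6 higher (13 and 4 with the KD libraries as 1 group). Their medians were -0.19, -0.29 and -0.31 in the ORP5/8, ATP11A/C and CDC50A lines. The called members with the smallest p had another order of lines, among them Ifih1 (-2.48, -1.21 and -0.80), Zbp1 (-5.04, -2.67 and -1.89) and Ddx58 (-2.23, -1.06 and -0.62), sensors that interferon itself induces. The 14 tested genes of RNA interference included 4 higher and 3 lower (2 and 0 with the KD libraries as 1 group), with a median of 0.01, and these shares are near those of all genes (21.9% higher, 23.9% lower). Dicer1, which cuts double-stranded RNA, had 0.43, 0.16 and 0.08, and Drosha, the nuclear processor, -0.01, 0.21 and 0.32.

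Promoter sequences (250 bases before to 50 after the start, from RefSeq, GRCm38.p6) were searched on both strands for the core of the interferon-stimulated response element, GAAANNGAA, and that of the gamma-activated site, TTCNNNGAA. Of the 24 list members among shared lower genes, 19 had a promoter in the table and 15 of these (78.9%) held the first core. So did 27 of 131 (20.6%) of the other shared lower genes, 9 of 56 (16.1%) similar lower genes, 5 of 50 (10.0%) shared higher genes and 3 of 22 (13.6%) similar higher genes. The other shared lower genes are only those outside that list, and Stat2, whose promoter held the core, is among them. Among all tested genes the share was 826 of 9279 (8.90%), and among all promoters given it was 2638 of 27025 (9.76%). The second core was held by 16 of 150 (10.7%) shared lower, 4 of 56 (7.14%) similar lower, 7 of 50 (14%) shared higher and 764 of 9279 (8.23%) tested genes. A match is a description of letters and not of a bound site. The 6 promoters below let graded antiviral genes be read beside the similar genes Stat2, Ranbp3l and Osbpl8, of which Stat2 was itself graded. They run 5' to 3' along the gene, with the first core in capitals on whichever strand it was found. The matches in Isg15 (chr4:156200769-156201068, minus strand) and Ifit1 (chr19:34640639-34640938, plus strand) number 3 each and overlap in part. Rsad2 (chr12:26456403-26456702, minus strand), Stat2 (chr10:128270248-128270547, plus strand) and Ranbp3l (chr15:8967699-8967998, plus strand) have 1 each, and Osbpl8 (chr10:111164552-111164851, plus strand) has none in this window.
Isg15: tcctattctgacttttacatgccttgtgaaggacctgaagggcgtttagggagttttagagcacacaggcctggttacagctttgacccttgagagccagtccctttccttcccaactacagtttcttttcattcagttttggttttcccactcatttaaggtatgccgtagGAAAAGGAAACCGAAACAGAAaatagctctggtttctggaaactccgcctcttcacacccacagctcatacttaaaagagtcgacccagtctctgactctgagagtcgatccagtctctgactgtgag
Ifit1: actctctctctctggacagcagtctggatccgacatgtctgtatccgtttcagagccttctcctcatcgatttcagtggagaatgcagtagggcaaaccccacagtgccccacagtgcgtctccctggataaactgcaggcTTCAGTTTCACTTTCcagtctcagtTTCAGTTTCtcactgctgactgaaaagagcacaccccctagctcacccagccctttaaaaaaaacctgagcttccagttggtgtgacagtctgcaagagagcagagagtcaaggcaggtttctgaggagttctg
Rsad2: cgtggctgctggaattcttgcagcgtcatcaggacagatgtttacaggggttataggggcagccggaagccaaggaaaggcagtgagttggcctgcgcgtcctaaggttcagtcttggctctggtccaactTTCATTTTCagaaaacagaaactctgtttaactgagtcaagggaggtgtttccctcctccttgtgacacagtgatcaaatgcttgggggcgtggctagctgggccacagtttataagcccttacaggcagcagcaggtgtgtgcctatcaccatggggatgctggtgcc
Stat2: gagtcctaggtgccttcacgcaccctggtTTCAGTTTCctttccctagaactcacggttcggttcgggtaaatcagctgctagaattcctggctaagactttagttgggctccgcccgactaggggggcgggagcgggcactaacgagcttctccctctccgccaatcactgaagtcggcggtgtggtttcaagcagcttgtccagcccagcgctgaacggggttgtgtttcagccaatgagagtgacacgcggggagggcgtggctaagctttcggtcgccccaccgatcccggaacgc
Ranbp3l: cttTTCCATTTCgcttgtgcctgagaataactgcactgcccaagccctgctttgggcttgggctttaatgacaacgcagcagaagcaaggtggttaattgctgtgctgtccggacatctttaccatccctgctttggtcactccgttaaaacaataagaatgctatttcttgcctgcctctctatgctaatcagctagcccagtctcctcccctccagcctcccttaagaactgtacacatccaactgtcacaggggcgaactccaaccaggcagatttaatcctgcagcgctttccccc
Osbpl8: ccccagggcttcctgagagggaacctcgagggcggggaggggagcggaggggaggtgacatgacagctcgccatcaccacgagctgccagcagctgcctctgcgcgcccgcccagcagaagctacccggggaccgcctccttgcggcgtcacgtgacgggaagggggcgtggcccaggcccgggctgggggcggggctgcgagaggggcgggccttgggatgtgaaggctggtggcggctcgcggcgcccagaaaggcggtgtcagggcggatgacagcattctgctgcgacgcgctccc
In Isg15 and Ifit1 the last match begins 66 and 84 bases before the start, and in Rsad2 119 bases before it. Those of Stat2 and Ranbp3l begin 221 and 247 bases before it, near the far end of the window.

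MHC class I genes followed the graded pattern at smaller size. Of 20 tested genes of class I, peptide loading and the immunoproteasome, 18 were lower and none higher (17 and 0 with the KD libraries as 1 group). Over all genes, 23.9% were lower and 21.9% higher. Medians were -0.92, -0.51 and -0.29 in the ORP5/8, ATP11A/C and CDC50A lines, and none of the 20 reached 2-fold in each line. These genes resemble each other, and reads could be split among them. The nonclassical class I genes H2-T22 (-1.34, -0.93 and -0.63) and H2-T23 (-1.93, -0.81 and -0.60), the peptide transporter Tap1 (-1.47, -0.81 and -0.46) and the immunoproteasome subunit Psmb9 (-1.28, -0.92 and -0.57) led. Of 8 class II genes tested, 3 were higher and none lower. H2-Ab1, a class II beta chain, had 5.23, 1.72 and 1.55 from 0.0675 CPM in Parental, so low that the fitted size depends on the prior count, H2-DMa, which helps load class II, 1.04, 0.46 and 0.58, and the invariant chain Cd74 0.18, 0.29 and 0.46. The medians of this short list were 3.84, -0.53 and -0.05 in the 3 lines. With the KD libraries as 1 group 3 were higher and 0 lower, and the equal-weight median of 0.47 became 2.41. When 1 CPM in at least 4 libraries was required, 6 members were tested. Members near 0 CPM outside ORP5/8 KD can pass the filter through that line alone, so these medians are no measure of size.

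Inflammatory effectors held both kinds of change. Of 25 tested, 21 were lower and none higher (14 and 0 with the KD libraries as 1 group), against 23.9% lower and 21.9% higher over all genes. Among the 25, 8 were shared and 3 were similar, all lower (1.62% and 0.549% of all genes). The medians were -1.72, -0.79 and -0.85. Nos2, the inducible nitric oxide synthase, stood at 0.973, 1.17, 1.28 and 1.5 CPM in the ORP5/8 line, 1.63, 1.8, 1.82 and 1.58 in the ATP11A/C line, 1.6, 1.71, 2.14 and 1.68 in the CDC50A line, and 7.05, 7.2, 7.79 and 7.92 CPM in Parental. Ccl2, a monocyte chemokine, stood at 0.762, 0.817, 0.688 and 1.05 CPM in the ORP5/8 line, 1.01, 0.931, 0.6 and 1.09 in the ATP11A/C line, 0.798, 0.438, 0.705 and 0.713 in the CDC50A line, and 3.23, 3.42, 3.57 and 3.37 CPM in Parental. Neither overlapped with Parental, and log2 fold changes were -2.60, -2.13 and -2.07 for Nos2 and -2.03, -1.91 and -2.32 for Ccl2. The third similar gene was Il1rn, given above. The chemokine Ccl4 had -2.56, -1.55 and -1.63. In contrast, Tnf had -1.72, -0.15 and -0.34 and was not called in every line. NF-kB subunits and feedback regulators had 14 of 22 lower and none higher (5 lower with the KD libraries as 1 group), with 4 called in all 3 lines and none shared at 2-fold. Among these Tnip3, an inhibitor of the pathway, had -1.59, -0.63 and -0.39 and Tnfaip3 (A20) -1.04, -0.33 and -0.54. Of 30 AP-1, Egr and Klf genes, 17 were lower and 2 higher (10 and 2 with the KD libraries as 1 group), with the phosphatase gene Dusp4 at -2.20, -1.67 and -1.51 and Klf6 at -0.86, -0.77 and -0.86.

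Receptors for opsonins, modified lipoproteins and sugars were mostly lower, with medians close together in the 3 lines. Of 29 tested, 25 were lower and 1 higher (18 and 0 with the KD libraries as 1 group), against 23.9% lower and 21.9% higher over all genes. In each line by itself 18 were lower (10.9% of all genes), and the medians were -0.62, -0.64 and -0.61. Msr1, the class A scavenger receptor, stood at 143, 128, 126 and 128 CPM in the ORP5/8 line, 110, 135, 123 and 136 in the ATP11A/C line, 141, 140, 131 and 122 in the CDC50A line, and 321, 316, 334 and 317 CPM in Parental. No KD library exceeded 143 CPM and no Parental library was under 316, and the change was -1.30 ± 0.0467, adjusted p = 1.4e-15 with -1.29, -1.35 and -1.27 by line. Clec4e (Mincle), a lectin for glycolipids, stood at 56.6, 47.5, 49.4 and 51.4 CPM in the ORP5/8 line, 49.2, 60.5, 59.3 and 57.8 in the ATP11A/C line, 61.2, 60.5, 59.4 and 57.4 in the CDC50A line, and 122, 119, 128 and 119 CPM in Parental. Fcgr4, an Fc receptor, stood at 2.55, 2.78, 2.41 and 2.77 CPM in the ORP5/8 line, 2.2, 2.01, 2.38 and 2.57 in the ATP11A/C line, 1.6, 3.15, 2.42 and 2.85 in the CDC50A line, and 5.17, 6.65, 6.06 and 6.36 CPM in Parental. These 3 were the similar genes of the list, and Msr1 and Fcgr4 were not called different among the lines (adjusted p = 0.483 and 0.54) while Clec4e was (0.0105). The complement receptor C3ar1 (-0.93, -1.06 and -0.98) was lower by close to 2-fold in each line, the integrin chain Itgb2 had -0.63, -0.60 and -0.59, and the lectin Clec12a -0.55, -0.54 and -0.52. Equal medians do not mean equal members, since the integrin Itgax had -0.17, -1.17 and -2.14 and the scavenger receptor Scarf1 -3.39, -3.04 and -4.92. Siglec1, also induced by interferon, had -3.97, -2.48 and -2.04.

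**Figure D3:**
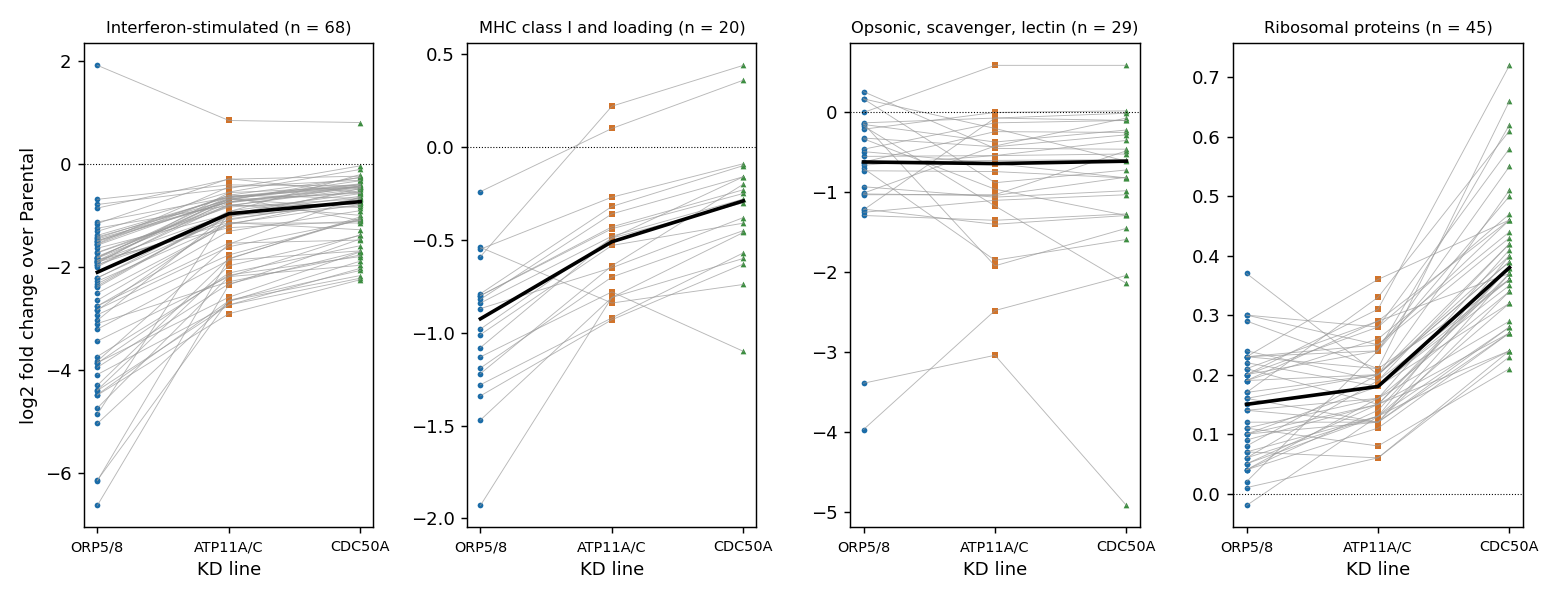
Log2 fold change over Parental of each tested member of 4 gene lists in the ORP5/8, ATP11A/C and CDC50A KD lines; thin lines join a gene, the thick line joins the medians, and the vertical scales differ. Medians run -2.11, -0.97 and -0.74 for interferon-stimulated genes, -0.92, -0.51 and -0.29 for MHC class I, -0.62, -0.64 and -0.61 for the receptors and 0.15, 0.18 and 0.38 for ribosomal proteins.

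Genes that deal with phosphatidylserine and engulfment were split. Of 32 tested receptors and engulfment genes, 18 were lower and 6 higher (11 and 3 with the KD libraries as 1 group; all genes: 23.9% lower, 21.9% higher). Anxa1, a phosphatidylserine-binding annexin, had -1.02, -0.93 and -0.89 and was not called different among the lines (adjusted p = 0.129). Dock1, an exchange factor for Rac, had -0.43, -0.73 and -1.02, and the don't-eat-me ligand Cd47 -0.82, -0.58 and -0.53. Gas6, a bridge from the lipid to TAM receptors, was called lower with equal weight (-1.21 ± 0.0556, adjusted p = 9.49e-14) although it was higher in ORP5/8 KD (0.77, -1.83 and -2.58), so its mean stands for no line. Genes of LC3-associated phagocytosis and the oxidase had 7 of 25 higher and 7 lower (4 and 4 with the KD libraries as 1 group), shares near those of all genes. Map1lc3b, which encodes LC3B, had 0.35, 0.36 and 0.73, the oxidase subunit Cybb -0.48, -0.34 and -0.17 and the GTPase Rac2 0.10, 0.22 and 0.42.

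Among 32 tested oxysterol-binding and contact-site genes 16 were lower and 4 higher (10 and 4 with the KD libraries as 1 group). Of 28 genes of phosphatidylserine and glycerophospholipid synthesis 7 were lower and 7 higher (4 and 3 with the KD libraries as 1 group), again near the shares of all genes (23.9% lower, 21.9% higher). Beyond Osbpl8, Osbpl10 had -1.91, -1.17 and -2.24 at low level (0.932 CPM in KD, 3.06 in Parental), the sterol carrier Stard3 -0.54, -0.41 and -0.40 and the tether Esyt1 -0.27, -0.61 and -0.46. Etnk1, the first kinase of phosphatidylethanolamine synthesis, had -0.66, -0.44 and -0.52. Of 10 tested P4-ATPase and CDC50 genes 6 were lower and none higher (5 and 0 with the KD libraries as 1 group). The similar one was Atp9a, below 1 CPM (-1.10, -1.32 and -1.10). Atp8b4 had -0.70, -0.28 and -0.31. Of 12 scramblase genes 9 were lower and none higher (6 and 0 with the KD libraries as 1 group). Among the lower ones was Plscr3 (-0.47, -0.50 and -0.44, with adjusted p = 0.799 for a difference among lines).

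Lysosomal genes and sterol genes were mostly lower by small amounts. Over all genes, 23.9% were lower and 21.9% higher. Of 55 tested lysosomal genes 37 were lower and 7 higher (26 and 2 with the KD libraries as 1 group), with medians of -0.17, -0.25 and -0.23. The cathepsins Ctss, Ctsb and Ctsd had -0.69, -1.0 and -0.82, -0.68, -0.78 and -0.78 and -0.89, -0.77 and -0.75, and Gla, alpha-galactosidase, -0.24, -0.87 and -0.86. Of 26 cholesterol genes 18 were lower and 3 higher (13 and 1 with the KD libraries as 1 group), among them Hmgcs1 (-0.39, -0.28 and -0.49) and Insig1 (-0.39, -0.31 and -0.35), which is under sterol control itself. Of 18 LXR genes 9 were lower and 3 higher (4 and 3 with the KD libraries as 1 group), and the lipase Lpl had -1.37, -0.92 and -1.10. Macrophage identity genes were lower in 15 of 25 and higher in 2 (11 and 1 with the KD libraries as 1 group), with Mpeg1 (perforin-2) at -0.79, -0.99 and -1.04. Of 18 osteoclast genes 12 were lower and 3 higher (10 and 2 with the KD libraries as 1 group). Car2, carbonic anhydrase, rose in each line (0.99, 0.95 and 1.26, with 792 CPM in KD and 376 in Parental).

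Genes of translation and respiration rose, by small amounts. Of 45 tested cytosolic ribosomal protein genes 44 were higher and none lower (30 and 0 with the KD libraries as 1 group). Over all genes, 21.9% were higher and 23.9% lower. In each line by itself 24 were higher (6.45% of all genes), and in 11 all KD libraries lay above Parental (4.94% of all genes). The medians were 0.15, 0.18 and 0.38. All 24 called in each line differed among the lines, with the largest rise in CDC50A KD, and none reached 2-fold. Rpl10a had 0.30, 0.28 and 0.47 (717 CPM in KD, 561 in Parental) and Rps20 0.17, 0.33 and 0.61. Many ribosomal genes have processed pseudogenes that could take part of their reads. Of 42 nuclear respiratory chain genes 27 were higher and 1 lower (17 and 0 with the KD libraries as 1 group; medians 0.08, 0.13 and 0.22), led by the ATP synthase subunit Atp5o (0.15, 0.31 and 0.47). Of 15 mitochondrially encoded genes 11 were higher and none lower (8 and 0 with the KD libraries as 1 group). Their medians were 0.32, 0.29 and 0.48, and none of the 6 called in each line was called different among the lines. Cytochrome b, mt-Cytb, had 0.75, 0.60 and 0.71. These rises go with the larger mitochondrial share of counts given above, whose part was not tested.

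The remaining lists had equal-weight medians between -0.14 and 0.06, and their counts stand against 21.9% higher and 23.9% lower over all genes. Most counts were smaller with the KD libraries as 1 group. Chaperone and unfolded protein genes had 11 of 31 higher and 6 lower (2 and 2 with the KD libraries as 1 group), with medians of opposite sign (-0.26, 0.12 and 0.32 in the ORP5/8, ATP11A/C and CDC50A lines), and Creld2, induced in the endoplasmic reticulum, had -0.43, 0.53 and 0.89. ATF4 and amino acid genes had 8 of 30 higher and 10 lower (4 and 3 with the KD libraries as 1 group), with Atf3 at -0.57, -0.90 and -1.13. DNA replication genes had 9 of 30 higher and 4 lower (4 and 1 as 1 group) and mitosis genes 10 of 30 higher and 4 lower (5 and 2 as 1 group), with medians of 0.01 and 0.06. Upper-quartile scaling gave 2 lower DNA replication genes. Of 25 p53 targets 7 were higher and 10 lower (3 and 4 as 1 group), where Plk2, a polo-like kinase, had -2.30, -1.33 and -1.96 and Sesn1, a stress-induced sestrin, 1.34, 0.76 and 0.45. Of 34 glycolysis and hypoxia genes 1 was higher and 15 lower (1 and 8 as 1 group). Of 24 NRF2 and iron genes 4 were higher and 14 lower (1 and 7 as 1 group), with the haem oxygenase Hmox1 at -0.83, -0.79 and -0.75. Toll-like receptor genes had 10 of 21 lower and 4 higher (6 and 4 as 1 group), with Tlr13, a sensor of bacterial ribosomal RNA, at -0.58, -0.62 and -0.69. Sulfotransferase and prostaglandin lists had 7 of 21 and 6 of 14 lower (6 and 3 as 1 group) and 5 and 3 higher (2 and 2 as 1 group), Chst1 and Hpgd among the higher.

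**Figure D4:**
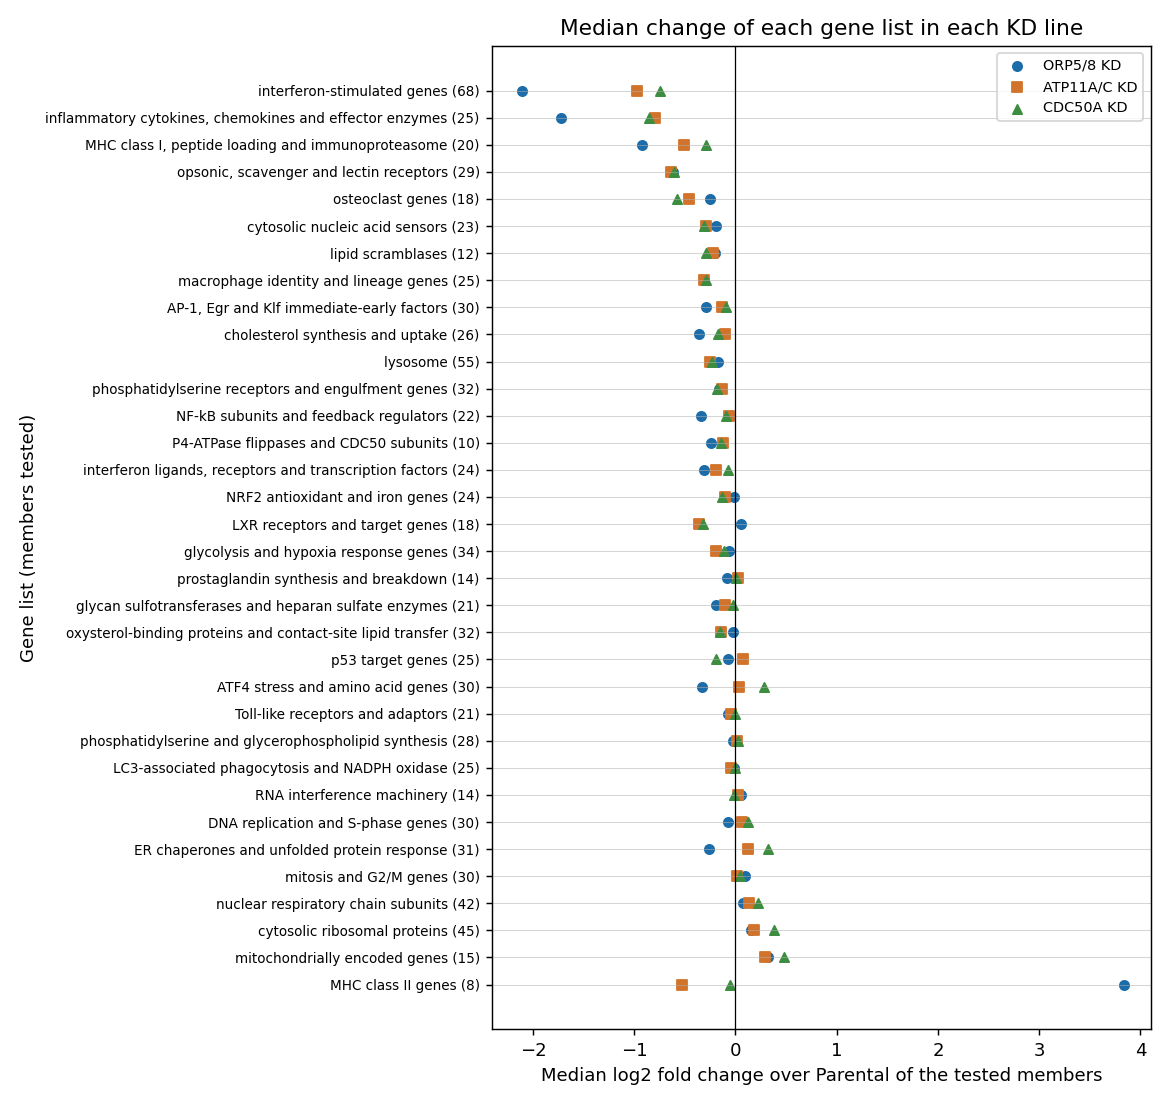
Median log2 fold change over Parental of the tested members of each gene list with at least 8 tested members, for each KD line; the number of members is in brackets. The 3 lines lie together for the opsonic, scavenger and lectin receptors (-0.62, -0.64 and -0.61) and far apart for interferon-stimulated genes (-2.11, -0.97 and -0.74) and MHC class II genes (3.84, -0.53 and -0.05). The class II list holds members near 0 CPM, so its medians are no measure of size.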

How the data were processed

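RNA of 16 libraries was sequenced in paired-end mode from a stranded mRNA kit, per the labels' protocols. Per the submitters' processing notes, Trim Galore 0.5.0, STAR 2.7.5a, Picard and RSEM were used with the mm10 build. The authors deposited RSEM expected counts for each gene, of which 4.63% carry decimals, and they were rounded to whole counts. The 92 ERCC records, all at 0, were dropped, leaving 55573 genes. Groups came from the genotype labels.

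Genes passing filterByExpr at a minimum count of 10 (13107, holding 99.973% of counts) were scaled by TMM and fitted in edgeR 4.0.16 (R 4.3.3) with a term per group over all 16 libraries. The equal-weight contrast is the mean of the 3 KD terms minus Parental, and a test with 2 degrees of freedom compares the KD lines. Adjusted p-values are Benjamini-Hochberg values over all tested genes, and the permutation p-values are not adjusted. The biological coefficient of variation was 6.86%. Precision is limited by 24020891 to 41543050 counts per library. A limit of 3 counts was used against a group at 0. Coordinates are GENCODE M21 on mm10. The code was tested on simulated data.

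The members, gene lists and named-gene rule were chosen with earlier results of these data known. The rule takes the target genes, up to 12 similar genes per direction and 8 shared genes per direction by size (at least 10 CPM, no overlap, no predicted names), the 4 called members of each list with the smallest adjusted p, and the nearest genes at each limit. Some are left out of the text, and a few genes, 1 of them in the labels, are not reported here. Alternatives were other scalings and filters, DESeq2 1.42.0, limma 3.58.1 on 1 value per line, a replicate block, other limits, and leaving out each line or library.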

Additional observations from a re-analysis of the deposited data

Results flagged for a closer look

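In 29 genes and 2 library measures, each group of 4 libraries was checked for a library far from the other 3 by Dixon's criterion, 124 groups in all, of which chance flags about 1 in 20. It marked 6. The Il1rn level of 1 CDC50A KD library was 14.8 CPM, with the others at 18.0 to 18.4. For Spp1, 1 ORP5/8 KD library stood at 886 CPM against 826 to 834 in the others. The lowest Lpp level in ATP11A/C KD was 7.75 CPM and the others were 9.21 to 9.33. Chst1 reached 104 CPM in 1 CDC50A KD library and 82.8 to 86.1 in the rest, and Runx3 14.4 CPM in 1 and 13.7 to 13.8 in the rest. Osbpl8 was 346 CPM in 1 Parental library and 333 to 335 in the others. None of these values reaches the range of the opposite side of its comparison with Parental.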

How the results depend on the processing

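The comparison depended most on what counts as a replicate. With the 12 KD libraries as 1 group, 1528 genes were higher and 1872 lower, and with 1 value per line limma called 1 higher and 0 lower (295 and 760 at an unadjusted p under 0.05). Of 244 named or similar genes, 243 lost their call with 1 value per line and 12 with the KD libraries as 1 group. Requiring 1 CPM in at least 4 libraries left 48 shared and 18 similar higher genes, and 164 shared and 62 similar lower ones. A limit of 1.5-fold in each line gave 138 shared genes higher and 437 lower, and no size limit 845 and 1434. A tighter ratio limit gave 11 similar genes higher and 31 lower, and a limit of 2 gave 110 lower. The counts kept within 1.5 times with the DESeq2 Wald test, with its size factors in edgeR, without a filter on low counts and with upper-quartile scaling, though under upper-quartile scaling higher genes (3606) outnumbered lower ones (2721). Leaving out 1 library at a time cost none of the genes still tested (243 or 244 of the 244) its call. It gave 2374 to 3274 genes higher and 2738 to 3276 lower, 72 to 83 and 201 to 226 shared, and 25 to 37 and 66 to 74 similar. It also gave 7251 to 8239 genes different among lines and a mitochondrial difference of 0.403 to 0.46 percentage points. With a line left out, 241 to 243 of the 244 genes were still tested. Without the ORP5/8 line Tnrc6c lost its call (0.14, adjusted p = 0.0619), and without the CDC50A line Drosha (0.10, 0.109), Creld2 (0.05, 0.318) and Ndufb5 (0.07, 0.145) did. Replicate numbers gave little sign of pairing libraries. Deviations of same-numbered libraries correlated at -0.629 to 0.362 (median 0.0927, 10 of 24 over 0.1). Other pairs correlated at -0.598 to 0.563 (median -0.0191, 25 of 72 over 0.1), and 3 of 16 libraries correlated best with their own number. With the replicate block 2822 genes were higher and 3107 lower. Depth limits genes under 1 CPM.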
